A study of Homo sapiens with 10 samples.

Results

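The comparison described here is the knockdown of IRF1-AS in 2 human esophageal squamous cell carcinoma lines, KYSE30 and KYSE180. Its members were chosen by treatment label: 2 IRF1-AS knockdown libraries and 2 vector control libraries, 4 of the 10 RNA sequencing libraries of the series. Each line gave 1 library of either kind, and the knockdown library was compared with the control of the same line. The knockdown cells had been infected with lentivirus made in HEK293T cells, a human embryonic kidney packaging line. The sample names carry the mark of a short hairpin for both kinds of cells, and the control cells carried a vector. All cells were unstimulated, as no interferon is labelled for them, and were at passage 5 to 10. The other 6 libraries are IFN-β-treated and untreated cells of KYSE30, KYSE180 and KYSE450, and were used here only to draw up a list of genes that interferon raises. No source used here gives the number of hairpins, the time after infection, or whether the infected cells were clones or pools.

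IRF1-AS is a long non-coding RNA transcribed from the strand opposite to IRF1, an interferon-induced transcription factor. In type I interferon signalling, IFN-β binds its receptor, Janus kinases activate STAT proteins, and these join IRF9 and bind interferon-stimulated response elements in promoters. The genes so induced make antiviral proteins and the machinery that presents peptides on MHC class I. In squamous epithelia, a second programme, squamous differentiation, turns on small proline-rich proteins, S100 proteins and transglutaminases as basal cells move towards the surface.

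The unit is FPKM, a measure of fragments scaled to transcript length and library size. The program that made the values is not stated, and some entries that share exons with a neighbour swing between near 0 and high values. Differences are given as knockdown minus control of log2(FPKM + 1), so 1 is a doubling, and the added 1 makes differences of weakly expressed genes too small. The steps between low values gave an estimate of 18300000 to 21600000 reads in each library, with the 2 knockdown libraries below the 2 controls. Between 11098 and 11586 named genes reached 1 FPKM in each library. Mitochondrially encoded genes took 6.47% of the FPKM in the KYSE30 control and 5.38% after knockdown, against 4.67% and 6.47% in KYSE180. The squamous markers KRT5, KRT14, TP63, EPCAM and CDH1 were present in every library. The summed level of 12 leukocyte markers was between 3.45 and 10.6 FPKM and that of 8 endothelial markers between 0.303 and 2.97 FPKM. The 10 fibroblast markers summed to 6.52 FPKM in the KYSE30 control and 2.24 after knockdown, and to 7.51 and 7.33 in KYSE180. The 9 HEK293T markers summed to between 22.8 and 34.9 FPKM, most of it from HOXA10 and, in KYSE30, GATA3. Of these markers 4 of the leukocyte, 2 of the endothelial, 1 of the fibroblast and 1 of the HEK293T list were at 0 in all 4 libraries. The part of these cell types in the results was not tested.

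No gene passed the test over both lines. In limma, with the cell line as a block, 0 of 11921 genes (0.0%) had an adjusted p of 0.05 or less, the smallest adjusted p was 0.288, and 718 genes had an unadjusted p under 0.05, of which 227 were higher and 491 lower after knockdown. With 2 lines the fit has 1 residual degree of freedom, and within a line there is no replicate at all. Genes were therefore described by size: a difference of at least 1 (2-fold) in a line, and the same or another direction in the other line. These counts carry no test.

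Few genes were past 2-fold the same way in both lines, while 3228 genes were higher and 3072 lower in both by any amount. After knockdown 13 genes (0.109% of those tested) were at least 2-fold higher in both lines and 41 (0.344%) were at least 2-fold lower in both. The counts were 28 and 114 with 0.1 added in place of 1, and 20 and 76 with each library rescaled to a sum of 1000000. Within KYSE30, 183 genes (1.54%) were 2-fold higher and 373 (3.13%) lower, and within KYSE180, 152 (1.28%) were higher and 294 (2.47%) lower. Of the 556 genes past 2-fold in KYSE30, 9.71% were past it in the same direction in KYSE180, and of the 446 in KYSE180, 12.11% were in KYSE30. Opposite 2-fold differences were found for 18 genes higher in KYSE30 and lower in KYSE180 (0.151%) and 13 of the reverse kind (0.109%). Over all 11921 genes the differences of the lines correlated at a Pearson r of 0.099 and a Spearman rho of 0.106, which describes genes of 4 libraries and not replicates. The median difference of all genes was 0.02 in KYSE30 and -0.01 in KYSE180.

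**Figure D1:**
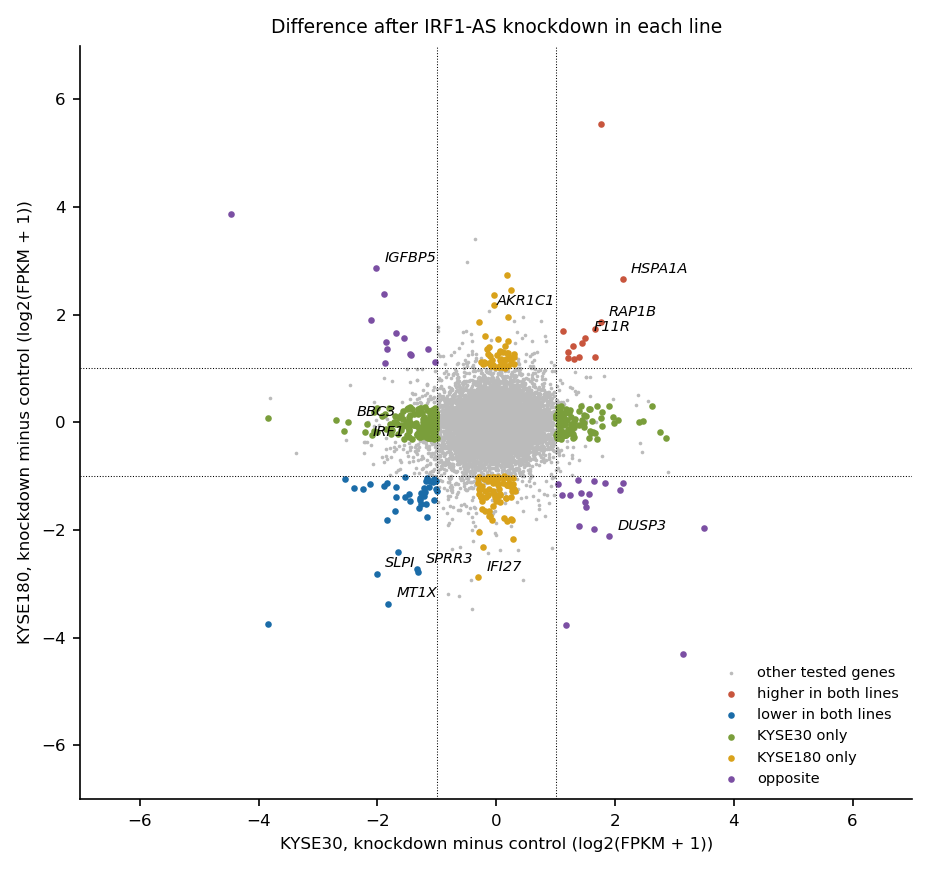
Each point is 1 of the 11921 tested genes, placed by its knockdown minus control difference of log2(FPKM + 1) in KYSE30 (horizontal) and in KYSE180 (vertical), with dotted lines at 2-fold. Most genes past 2-fold in a line lie within 2-fold in the other. The upper right corner holds 13 genes and the lower left 41.

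The targeted gene stood lower in both knockdown libraries, by more in KYSE30 than in KYSE180. IRF1-AS was taken to be the entry C5orf56 (ENSG00000197536, chromosome 5, 132410636 to 132488702 in GRCh38, plus strand). It stood at 6.86 FPKM in the KYSE30 control and 3.04 after knockdown, which is 44.4% of control. In KYSE180 it stood at 1.08 FPKM in the control and 0.948 after knockdown, 88.0% of control, a gap too small to check the label of that library. No source used here gives the hairpin sequence or the IRF1-AS transcript it targets, so these percentages are of the whole entry. Its exons overlap those of IRF1 (chromosome 5, 132481609 to 132490798, minus strand), and no source used here gives the strand setting of the counting, so reads of the 2 genes cannot be told apart where they overlap. IRF1 itself stood at 31.1 FPKM in the KYSE30 control and 5.88 after knockdown, and at 1.83 and 1.20 in KYSE180. The lower IRF1 level was thus 18.9% of control in KYSE30 and 65.7% in KYSE180, and the KYSE180 control already lay below both KYSE30 libraries. The limma difference of IRF1 was -1.29 ± 0.48 (SE, adjusted p = 0.806), and that of C5orf56 was -0.53 ± 0.30 (adjusted p = 0.818).

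DHX9, an RNA helicase known as a partner of IRF1-AS, was not lower. It was at 32.2 FPKM in the KYSE30 control and 59.9 after knockdown, and at 50.6 and 59.0 in KYSE180. ILF2, an RNA-binding protein, was at 130.3 and 165 FPKM in KYSE30, against 165 and 161 in KYSE180. For both genes the KYSE30 difference was the larger.

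**Figure D2:**
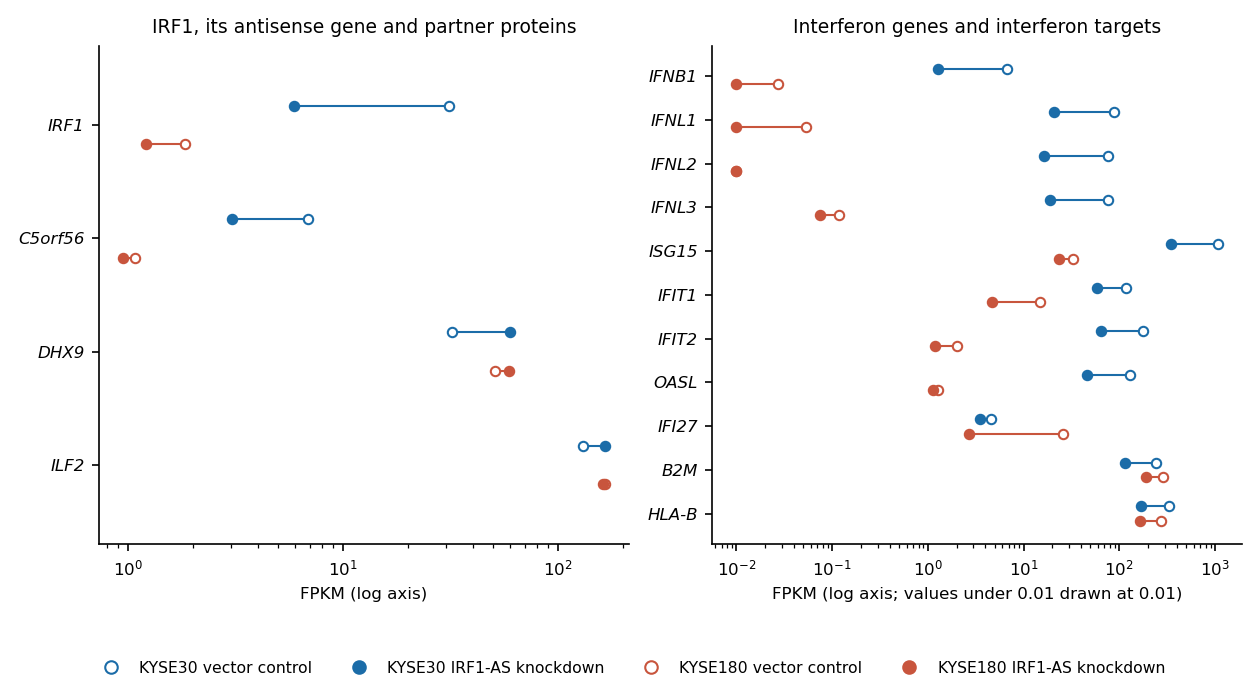
FPKM on a log axis in each library, open circles for vector control and filled circles for IRF1-AS knockdown, KYSE30 in blue and KYSE180 in red. IRF1 and the interferon genes lie far higher in KYSE30 than in KYSE180, and every interferon target shown has its filled circle to the left of its open circle in both lines.

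Interferon ligands stood above 1 FPKM in KYSE30 but not in KYSE180. IFNB1, which encodes IFN-β, was at 6.69 FPKM in the KYSE30 control and 1.26 after knockdown, and at 0.0269 and 0 in KYSE180. The type III interferon IFNL1 was at 88.9 FPKM in the KYSE30 control and 20.6 after knockdown, and IFNL2 at 77.1 and 16.5. IFNL3, chosen after its values were seen like IFNB1, was at 76.9 and 18.8. All 3 were at 0.119 FPKM or less in both KYSE180 libraries. These genes are near-identical in sequence in part, so reads may be split among them, and their sum was 243 FPKM in the KYSE30 control and 55.9 after knockdown, a difference of -2.10. The KYSE30 control cells thus made interferon transcripts without any labelled interferon treatment, and the KYSE180 cells made almost none.

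Receptor and signalling genes differed less than ligands. Of 18 genes of the interferon receptors and JAK-STAT list tested, 9 were lower in both lines by any amount, 3 higher in both and 6 of opposite sign, with medians of -0.22 in KYSE30 and -0.03 in KYSE180. Over all tested genes 25.8% were lower in both lines and 27.1% higher in both. IRF9, the DNA-binding partner of activated STAT proteins, was at 25.5 FPKM in the KYSE180 control and 6.83 after knockdown, and at 4.33 and 3.0 in KYSE30. SOCS3, a feedback inhibitor of Janus kinases, was at 16.1 and 6.34 FPKM in KYSE180, against 28.3 and 21.3 in KYSE30. IRF9 and SOCS3 were past 2-fold in KYSE180 and lower by less in KYSE30, the reverse of IRF1. STAT2 was at 9.83 and 8.19 FPKM in KYSE30, against 8.10 and 7.98 in KYSE180.

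Most interferon-stimulated genes stood lower in both lines, with the lower median in KYSE30. Of 42 tested, 33 were lower in both lines by any amount, 0 were higher in both and 9 had opposite signs, with medians of -0.90 in KYSE30 and -0.33 in KYSE180. Of the 42, 14 were 2-fold lower in KYSE30 and 5 in KYSE180, with no gene 2-fold higher in either line. No gene was in both counts, and among all tested genes 0.344% were 2-fold lower in both lines. OAS2 lay just short of 2-fold in both, at -0.99 in KYSE30 and -0.93 in KYSE180. ISG15, a ubiquitin-like protein, was at 1073 FPKM in the KYSE30 control and 346 after knockdown, and at 32.7 and 23.7 in KYSE180. IFIT1, which binds foreign RNA, was at 116 and 58.5 FPKM in KYSE30, against 14.9 and 4.70 in KYSE180. OAS1, a sensor of double-stranded RNA, was at 48.0 and 27.2 FPKM in KYSE30, against 18.2 and 7.87 in KYSE180. In these 3 genes each knockdown library lay below its own control, while the KYSE30 knockdown library still lay above the KYSE180 control. ISG15 differed by more in KYSE30. IFIT1 and OAS1 differed by more in KYSE180, at -0.98 in KYSE30 and -1.48 in KYSE180 for IFIT1, and -0.80 and -1.12 for OAS1.

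Other antiviral genes were past 2-fold lower in KYSE30 and differed by under 2-fold in KYSE180. UBE2L6, the conjugating enzyme for ISG15, was at 19.6 FPKM in the KYSE30 control and 3.48 after knockdown, and at 55.6 and 43.1 in KYSE180. IFITM1, a membrane protein that restricts viral entry, was at 31.0 and 9.71 FPKM in KYSE30, against 58.3 and 61.0 in KYSE180. OASL was at 130.1 and 46.0 FPKM in KYSE30, against 1.27 and 1.13 in KYSE180. The reverse pattern was seen for IFI27 and MX1: IFI27 was at 26.0 FPKM in the KYSE180 control and 2.69 after knockdown, and at 4.59 and 3.52 in KYSE30, and MX1 was at 17.6 and 6.65 FPKM in KYSE180, against 0.265 and 0.12 in KYSE30.

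The promoters of ISG15 and IFIT1 are shown because both genes were lower in each knockdown library and hold the element that the complex of STAT proteins and IRF9 binds. The windows run from 250 bases before to 50 after the gene's start (RefSeq, GRCh38.p14; ISG15 at chr1:1013247-1013546 and IFIT1 at chr10:89392373-89392672, both plus strand). Capitals mark, on either strand, GAAA followed by 2 unspecified bases and GAAA again.
ISG15: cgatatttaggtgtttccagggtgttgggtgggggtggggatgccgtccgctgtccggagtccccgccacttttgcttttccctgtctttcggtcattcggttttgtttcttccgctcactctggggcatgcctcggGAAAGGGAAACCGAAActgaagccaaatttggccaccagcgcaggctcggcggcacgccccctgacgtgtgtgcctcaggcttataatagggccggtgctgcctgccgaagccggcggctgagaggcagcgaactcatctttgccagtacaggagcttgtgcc
IFIT1: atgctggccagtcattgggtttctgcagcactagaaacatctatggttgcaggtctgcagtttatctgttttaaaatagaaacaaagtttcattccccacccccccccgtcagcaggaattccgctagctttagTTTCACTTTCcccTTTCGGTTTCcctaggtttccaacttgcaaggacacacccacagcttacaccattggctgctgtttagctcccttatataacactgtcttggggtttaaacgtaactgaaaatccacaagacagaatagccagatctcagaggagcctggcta
In ISG15 a pair of overlapping matches begins 113 bases before the start, and in IFIT1 matches begin 116 and 103 bases before it. Of the 42 listed genes tested, 35 have such a window and 24 of those (68.6%) hold the letters, against 3.65% of all 27305 windows. A match is a stretch of letters and no measure of binding.

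Genes that IFN-β raises mostly stood lower after knockdown. In the separate IFN-β libraries, 82 genes were at least 2-fold higher after IFN-β in all 3 lines, and 71 of them were tested after knockdown. None was higher in both lines, 55 were lower in both and 16 had opposite signs, with medians of -0.71 in KYSE30 and -0.38 in KYSE180. Of the 71, 21 were 2-fold lower in KYSE30 and 7 in KYSE180, and 0 were 2-fold higher. The 71 include the targeted entry C5orf56 and IRF1, whose exons overlap it. Both count among the genes lower in both lines, and IRF1 also among those 2-fold lower in KYSE30. The IFN-β libraries share no control library with the knockdown, but come from the same cell lines. RARRES3, a phospholipase-like growth suppressor, was at 37.4 FPKM in the KYSE30 control and 14.9 after knockdown, and at 8.92 and 5.22 in KYSE180. IFI16, a DNA sensor, was at 24.4 FPKM in the KYSE180 control and 12.3 after knockdown but at 11 and 10.3 in KYSE30.

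Most antigen presentation genes stood lower in both lines. Of 15 MHC class I presentation genes tested, 11 were lower in both lines, 0 higher in both and 4 of opposite sign, with medians of -0.52 in KYSE30 and -0.37 in KYSE180. B2M, the light chain of MHC class I, was at 243 FPKM in the KYSE30 control and 114 after knockdown, and at 284 and 192 in KYSE180. The heavy chain gene HLA-B was at 333 and 170.4 FPKM in KYSE30, against 274 and 163 in KYSE180. In both genes the knockdown libraries lay below their controls. In each line 2 genes of the list were past 2-fold lower, in KYSE180 HLA-E at 12.0 and 4.43 FPKM and the peptide transporter subunit TAP2 at 4.77 and 1.68, which differed by -0.52 and -0.42 in KYSE30. The tables list HLA genes in several copies of the MHC region that were summed, and TAP1, PSMB8 and PSMB9 are listed at 0 in all 4 libraries, which may be failed estimates.

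Most tested targets of IRF1 and interferon-gamma stood lower in both lines, with the lower median in KYSE30. Of 14 tested, 9 were lower in both lines, 0 higher in both and 5 of opposite sign, with medians of -0.62 in KYSE30 and -0.42 in KYSE180, and 4 were 2-fold lower in KYSE30 against 0 in KYSE180. With no filter on low values the KYSE180 median was -0.08. The chemokine CXCL10 was at 19.7 FPKM in the KYSE30 control and 4.82 after knockdown, and at 0.136 and 0.186 in KYSE180. GBP2, a guanylate-binding protein, was at 15.1 and 4.30 FPKM in KYSE30, against 4.53 and 2.34 in KYSE180. SECTM1, a secreted and membrane protein, was at 30.3 and 6.42 FPKM in KYSE30, against 5.06 and 2.53 in KYSE180.

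The NF-kB and inflammatory group had the lowest median of the lists in KYSE30. Of 17 genes tested, 10 were lower in both lines, 0 higher in both and 7 of opposite sign, with medians of -1.17 in KYSE30 and -0.37 in KYSE180, and 10 were 2-fold lower in KYSE30 against 0 in KYSE180. The cytokine IL1A was at 20.3 FPKM in the KYSE30 control and 3.56 after knockdown, and at 0.648 and 0.115 in KYSE180. NFKBIA, the inhibitor that NF-kB induces, was at 113 and 49.6 FPKM in KYSE30, against 78.1 and 44.5 in KYSE180. TNFAIP3, a ubiquitin editor that dampens NF-kB, was at 29.8 and 7.53 FPKM in KYSE30, against 7.92 and 5.32 in KYSE180. CCL5, a chemokine, was at 158 and 42.2 FPKM in KYSE30, against 0.115 and 0.197 in KYSE180. The subunit RELA differed by -0.06 in KYSE30 and 0.29 in KYSE180, and NFKB1 was at 9.96 and 9.60 FPKM in KYSE30 and 13.7 and 14.4 in KYSE180. The subunits NFKB2 and RELB stood lower in both lines, NFKB2 at 32.2 and 13.6 FPKM in KYSE30 and 19 and 10.4 in KYSE180, and RELB by -1.15 and -0.58. The subunits of the factor thus differed among themselves.

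Several squamous differentiation genes stood 2-fold lower in both lines. SLPI, a secreted protease inhibitor of epithelia (chromosome 20, 45252239 to 45254564), was at 34.4 FPKM in the KYSE30 control and 7.76 after knockdown, and at 874 and 124 in KYSE180. The knockdown libraries held 22.5% and 14.2% of their controls, and its limma difference was -2.41 ± 0.26 (SE, adjusted p = 0.806). SPRR1A, a cornified envelope precursor, was at 75.4 and 29.6 FPKM in KYSE30, against 127 and 17.6 in KYSE180, and SPRR3 was at 23.8 and 8.87 FPKM in KYSE30, against 103 and 14.7 in KYSE180. S100A9, a subunit of calprotectin, was at 6.49 and 1.38 FPKM in KYSE30, against 83.1 and 14.9 in KYSE180. All 4 genes were higher in KYSE180 than in KYSE30 before knockdown, and all 4 were 2-fold lower in both lines.

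The differentiation list as a whole was lower in KYSE180 and divided in KYSE30. Of 24 genes tested, 11 were lower in both lines, 3 higher in both and 9 of opposite sign, with medians of -0.01 in KYSE30 and -0.74 in KYSE180. In KYSE180 10 were 2-fold lower, among them TGM1, the transglutaminase that crosslinks the envelope, at 48.8 FPKM in the control and 4.31 after knockdown, against 2.50 and 1.27 in KYSE30. IVL, an envelope protein, was at 9.82 and 1.13 FPKM in KYSE180 but at 4.31 and 9.19 in KYSE30. Among keratins, KRT13 was at 18.9 and 46.8 FPKM in KYSE30, against 2153 and 2119 in KYSE180, while KRT17 was at 214 and 59.4 FPKM in KYSE30, against 644 and 1661 in KYSE180. KRT14, a basal keratin, was at 29.7 and 13.6 FPKM in KYSE30, against 3616 and 1683 in KYSE180, and its partner KRT5 was at 117 and 228 FPKM in KYSE30, against 3038 and 3285 in KYSE180. The keratins thus differed in sign among themselves, and keratin genes share sequence with each other.

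Most genes of cholesterol synthesis stood lower in both lines. Of 29 tested, 23 were lower in both lines, 0 higher in both and 6 of opposite sign, with medians of -0.43 in KYSE30 and -0.65 in KYSE180, and 5 were 2-fold lower in KYSE30, 8 in KYSE180 and 2 in both. INSIG1, a sterol-responsive retention protein, was at 17.8 FPKM in the KYSE30 control and 7.24 after knockdown, and at 28.4 and 9.22 in KYSE180. The regulator SREBF2 was at 41.5 and 20.1 FPKM in KYSE30, against 33.1 and 22.5 in KYSE180. For both genes each knockdown library lay below its control.

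The SREBF2 window (RefSeq, GRCh38.p14, chr22:41832855-41833154, plus strand) is shown because it was the single one of 22 listed genes with a window (4.55%) that holds the sterol element letters TCACNCCAC, marked in capitals 133 bases before the start. Of all 27305 windows, 1.15% hold them on either strand.
SREBF2: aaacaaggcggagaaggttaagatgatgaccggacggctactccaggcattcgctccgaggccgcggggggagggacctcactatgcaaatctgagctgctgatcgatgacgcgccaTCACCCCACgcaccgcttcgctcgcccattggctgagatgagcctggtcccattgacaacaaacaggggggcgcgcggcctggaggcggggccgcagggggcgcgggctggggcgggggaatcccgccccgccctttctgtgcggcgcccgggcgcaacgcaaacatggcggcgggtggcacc

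Metallothioneins, which bind zinc and copper, were lower mainly in KYSE180. Of 5 genes tested in the list, 4 were lower in both lines and 1 had opposite signs, with medians of -0.53 in KYSE30 and -1.24 in KYSE180. MT1X was at 9.93 FPKM in the KYSE30 control and 2.08 after knockdown, and at 51.5 and 4.07 in KYSE180. MT2A was at 45.2 and 43.7 FPKM in KYSE30, against 64.0 and 21.3 in KYSE180, and the zinc exporter SLC30A1 at 5.07 and 3.20 in KYSE30 and 4.44 and 1.30 in KYSE180. MT1X was past 2-fold in both lines, MT2A and SLC30A1 in KYSE180. The metallothionein genes are near-identical, and reads may be split among them. The MT1X window (RefSeq, GRCh38.p14, chr16:56682220-56682519, plus strand) is shown for its repeats of the metal response element, TGCACNC or TGCGCNC, marked in capitals.
MT1X: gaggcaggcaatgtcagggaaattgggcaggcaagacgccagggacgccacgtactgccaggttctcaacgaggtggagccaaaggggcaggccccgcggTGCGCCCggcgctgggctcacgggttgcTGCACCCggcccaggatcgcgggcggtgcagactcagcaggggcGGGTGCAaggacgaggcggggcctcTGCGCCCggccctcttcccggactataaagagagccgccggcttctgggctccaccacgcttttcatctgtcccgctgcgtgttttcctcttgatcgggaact
Matches begin 150, 122, 78 and 53 bases before the start. All 3 list members with a window hold such letters on either strand, and so do 29.3% of all windows.

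**Figure D3:**
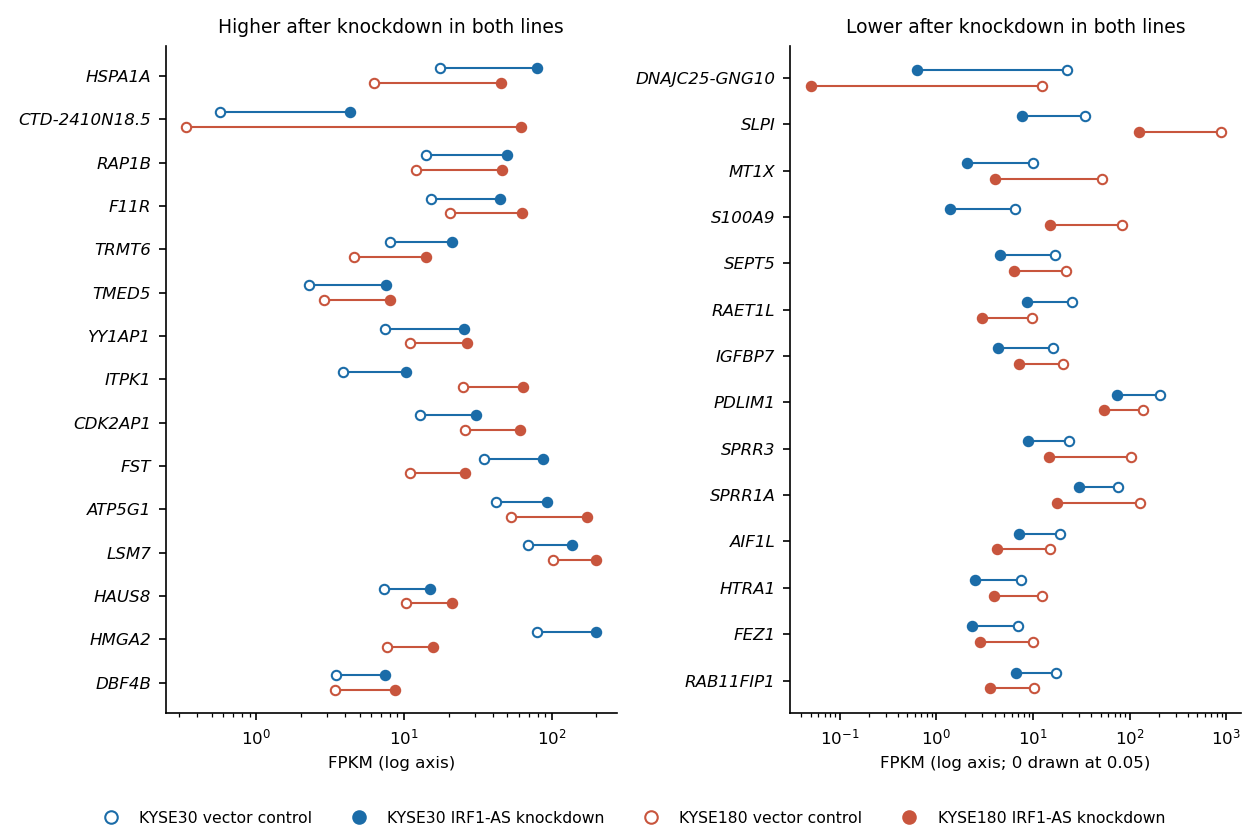
FPKM on a log axis of the 15 highest and 14 of the 15 lowest genes ranked by the smaller of their differences in the lines, open circles for vector control and filled for IRF1-AS knockdown. SLPI, SPRR1A, SPRR3 and S100A9 start higher in KYSE180 than in KYSE30, and HSPA1A ends higher in KYSE30.

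Other genes lower in both lines have varied roles. PDLIM1, a cytoskeletal adaptor, was at 207 FPKM in the KYSE30 control and 74.4 after knockdown, and at 138 and 54.5 in KYSE180. RAET1L, a ligand of the NKG2D receptor of natural killer cells, was at 25.5 and 8.71 FPKM in KYSE30, against 9.84 and 2.96 in KYSE180. IGFBP7, which binds insulin-like growth factors, was at 16.0 and 4.30 FPKM in KYSE30, against 20.4 and 7.20 in KYSE180. HCAR2, a receptor for niacin and ketone bodies, was at 6.12 and 0.983 FPKM in KYSE30, against 8.67 and 1.73 in KYSE180. In these 4 genes both knockdown libraries lay below both control libraries. The same held for SEPT5, a septin, at 17.1 and 4.56 FPKM in KYSE30 and 22.0 and 6.36 in KYSE180. The exons of IGFBP7 overlap those of POLR2B, and the exons of SEPT5 overlap those of GP1BB. The limma difference of SEPT5 was -1.67 ± 0.19 (SE, adjusted p = 0.806). CTGF, a target of YAP, was at 39.0 and 10.2 FPKM in KYSE30, against 2.27 and 0.487 in KYSE180.

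The gene with the lowest p, DNAJC25-GNG10, is a readthrough of 2 neighbours. It was at 22.4 FPKM in the KYSE30 control and 0.626 after knockdown, and at 12.5 and 0 in KYSE180 (limma adjusted p = 0.288). Summed with GNG10 and DNAJC25, whose exons it shares, the 3 entries came to 57.2 and 37.7 FPKM in KYSE30 and 35.8 and 32.0 in KYSE180, differences of -0.59 and -0.15. The entry therefore does not show a 2-fold difference of the locus.

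HSPA1A led the genes higher in both lines, ranked by the smaller of the differences in the lines. It encodes the inducible cytosolic chaperone HSP70 (chromosome 6, 31815464 to 31817946) and was at 17.4 FPKM in the KYSE30 control and 79.5 after knockdown, and at 6.29 and 45.0 in KYSE180. Both knockdown libraries lay above both controls, and its limma difference was 2.39 ± 0.22 (SE, adjusted p = 0.806). HSPA1B, its near-identical neighbour, was at 28.6 and 41.8 FPKM in KYSE30, against 47.4 and 66.8 in KYSE180. Summed, HSPA1A and HSPA1B came to 46.0 and 121 FPKM in KYSE30 and 53.7 and 112 in KYSE180, differences of 1.38 and 1.04. The tables list both genes in 5 copies of the MHC region, which were summed.

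Small GTPase, junction and other genes followed among those higher in both lines. RAP1B, a small GTPase of integrin adhesion, was at 14.0 FPKM in the KYSE30 control and 49.6 after knockdown, and at 12.0 and 46.2 in KYSE180. F11R, the tight junction protein JAM-A, was at 15.1 and 44.5 FPKM in KYSE30, against 20.5 and 62.8 in KYSE180. FST, which encodes the activin antagonist follistatin, was at 34.6 and 87.4 FPKM in KYSE30, against 10.9 and 25.9 in KYSE180. For RAP1B and F11R both knockdown libraries lay above both controls, while for FST the KYSE180 knockdown library lay below the KYSE30 control. CDK2AP1, an inhibitor of CDK2, was at 12.7 and 30.8 FPKM in KYSE30, against 25.8 and 60.4 in KYSE180. ATP5G1, a subunit of mitochondrial ATP synthase, was at 42.1 and 92.9 FPKM in KYSE30, against 52.6 and 173 in KYSE180. The limma differences of RAP1B and F11R were 1.81 ± 0.18 and 1.53 ± 0.18 (SE, adjusted p = 0.806 for both).

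The lists that hold RAP1B and F11R went in no common direction. Of 25 RAP1 and small GTPase genes tested, 5 were higher and 9 lower in both lines, and RAP1A, the paralog of RAP1B, was at 10.2 and 14.1 FPKM in KYSE30, against 15 and 6.49 in KYSE180. Of 27 cell junction genes, 7 were higher and 8 lower in both lines, close to the shares over all tested genes, with TJP3 at 23.0 and 10.5 FPKM in KYSE30 and 6.35 and 2.53 in KYSE180. HMGA2, an architectural chromatin protein, was at 79.5 and 199.9 FPKM in KYSE30, against 7.70 and 15.7 in KYSE180, just under 2-fold in KYSE180 on this scale. CTD-2410N18.5, an entry that shares exons with SKP1 and PPP2CA, was at 0.568 and 4.31 FPKM in KYSE30, against 0.336 and 61.3 in KYSE180. With SKP1 it summed to 117 and 21.4 FPKM in KYSE30 and 70.7 and 134 in KYSE180, so the pooled entries had opposite signs.

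The chaperone list had a median above 0 in KYSE30, with members in both directions. Of 26 heat shock and chaperone genes tested, 10 were higher in both lines, 3 lower in both and 13 of opposite sign, with medians of 0.35 in KYSE30 and 0.002 in KYSE180. HSPA8, the constitutive HSP70, was at 179 FPKM in the KYSE30 control and 539 after knockdown, and at 337 and 476 in KYSE180. HSPH1, an exchange factor for HSP70, was at 37.5 and 82.7 FPKM in KYSE30, against 32.0 and 28.1 in KYSE180. HSPE1, a mitochondrial co-chaperone and the single member 2-fold lower in KYSE30, was at 257 and 125.7 FPKM there and at 132.5 and 159.7 in KYSE180. The exons of HSPE1 overlap those of HSPD1 and of the entry HSPE1-MOB4, so reads may be split among them. HSP90AA1 was at 259 and 469 FPKM in KYSE30, against 506 and 409 in KYSE180. The HSPA8 window (RefSeq, GRCh38.p14, chr11:123062087-123062386, minus strand) is shown because HSPA8 was higher in both knockdown libraries and holds the letters of a heat shock element, marked in capitals: GAA, TTC and GAA, or TTC, GAA and TTC, each 2 unspecified bases apart.
HSPA8: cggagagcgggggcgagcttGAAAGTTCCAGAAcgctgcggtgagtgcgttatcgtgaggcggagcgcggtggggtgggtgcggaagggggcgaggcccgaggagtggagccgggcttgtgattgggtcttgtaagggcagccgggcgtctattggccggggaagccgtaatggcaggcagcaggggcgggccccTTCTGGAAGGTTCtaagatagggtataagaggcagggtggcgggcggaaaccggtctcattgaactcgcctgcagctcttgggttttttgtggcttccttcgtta
The stretches begin 230 and 55 bases before the start. Of 23 listed genes with a window, 4 (17.4%) hold such letters, against 0.487% of all windows.

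Growth and protein turnover genes differed by line. Of 33 cell cycle and mitosis genes tested, 26 had opposite signs in the lines, 2 were higher and 5 lower in both, with medians of 0.58 in KYSE30 and -0.24 in KYSE180, and 5514 of all 11921 genes had opposite signs. CCNB1, the mitotic cyclin, was at 56.4 FPKM in the KYSE30 control and 125 after knockdown, and at 73.2 and 47.6 in KYSE180. PLK1, a mitotic kinase, was at 56.9 and 122 FPKM in KYSE30, against 82.8 and 69.1 in KYSE180. CCNE1, the G1/S cyclin, was lower in both, at 19.8 and 9.63 FPKM in KYSE30, against 19.3 and 17.4 in KYSE180. MYC was at 32.1 and 8.15 FPKM in KYSE30, against 39.5 and 36.1 in KYSE180.

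Proteasome subunits stood higher in KYSE30 by less than 2-fold. Of 30 tested, 17 were higher in both lines and 0 lower in both, with medians of 0.52 in KYSE30 and 0.03 in KYSE180, and 0 were past 2-fold in KYSE30. PSMD11, a subunit of the proteasome lid, was at 39.9 and 73.2 FPKM in KYSE30, against 61.3 and 74.4 in KYSE180. Of 28 splicing factors, 17 were higher and 2 lower in both lines, with medians of 0.39 and 0.16. SRSF10 was at 6.95 and 13.0 FPKM in KYSE30, against 9.47 and 19.3 in KYSE180, and SRSF1 at 32.8 and 44.7 in KYSE30 and 25.0 and 75.5 in KYSE180. Of 30 DNA replication genes, 18 were higher and 1 lower in both lines, with medians of 0.25 and 0.11.

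Glycolysis and hypoxia genes lay lower in KYSE180. Of 26 tested, 11 were lower in both lines, 0 higher in both and 15 of opposite sign, with medians of 0.09 in KYSE30 and -0.50 in KYSE180. NDRG1, a hypoxia-induced gene, was at 144 FPKM in the KYSE180 control and 27.8 after knockdown, and at 59.9 and 39.1 in KYSE30. BNIP3, a mitophagy receptor, was at 96.5 and 43.0 FPKM in KYSE180, against 41.5 and 25.2 in KYSE30. LDHA, lactate dehydrogenase, was at 350.2 and 223 FPKM in KYSE180 but at 285 and 444 in KYSE30. All 26 genes were lower in KYSE180, while in KYSE30 the hypoxia genes named were lower and several glycolytic enzymes higher.

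**Figure D4:**
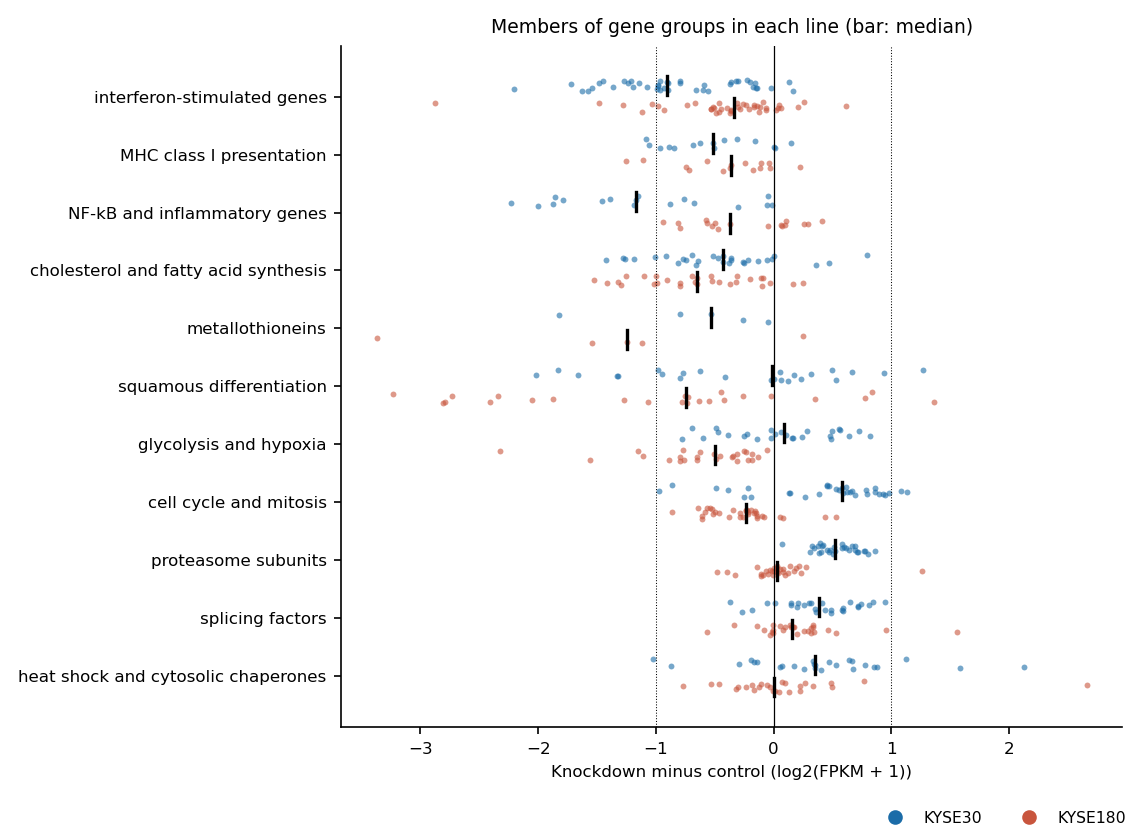
Each point is a gene of a group, placed by its knockdown minus control difference of log2(FPKM + 1), with KYSE30 in blue and KYSE180 in red, black bars at the medians and dotted lines at 2-fold. The bars of the cell cycle genes lie on opposite sides of 0, at 0.58 in KYSE30 and -0.24 in KYSE180, and those of the interferon-stimulated, MHC class I, NF-kB and cholesterol genes lie below 0 in both lines.

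Stress-response genes had similar medians in the lines, and single members differed. Of 23 genes of the unfolded protein and integrated stress response tested, 10 were lower in both lines, 2 higher in both and 11 of opposite sign. The medians were -0.24 in KYSE30 and -0.22 in KYSE180. Among all tested genes 25.8% were lower in both lines and 27.1% higher in both, and only the opposite-sign count lay near its share over all genes. DDIT4, an inhibitor of mTOR, was at 249 FPKM in the KYSE30 control and 133 after knockdown, and at 186 and 60.7 in KYSE180. ATF3, a stress-induced factor, was at 25.0 and 6.97 FPKM in KYSE30, against 2.10 and 1.41 in KYSE180. ASNS, asparagine synthetase, was at 40.3 and 14.1 FPKM in KYSE30 but at 25.3 and 43.2 in KYSE180. Of 25 cell death genes, 7 were lower and 6 higher in both lines, near the shares over all tested genes. The 3 that were 2-fold lower in KYSE30 were BBC3, PMAIP1 and BMF, all of which encode BH3-only proteins that promote apoptosis.

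In KYSE30, 88 genes were 2-fold higher (0.738%) and 139 lower (1.17%) while KYSE180 differed by less than 0.32, with a pair average there of at least 1 FPKM. BBC3, which encodes PUMA, was at 40.7 FPKM in the KYSE30 control and 6.42 after knockdown, and at 6.70 and 6.69 in KYSE180. CTSZ, a lysosomal protease, was at 22.1 and 4.10 FPKM in KYSE30, against 58.7 and 57.1 in KYSE180. ASS1, which makes argininosuccinate, was at 64.8 and 14.5 FPKM in KYSE30, against 36.9 and 31.0 in KYSE180. CLDN3, a claudin of tight junctions, was at 19.8 and 3.49 FPKM in KYSE30, against 1.23 and 0.97 in KYSE180. In these 4 genes the KYSE180 libraries were nearly level, wherever they lay against KYSE30.

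Other genes lower in KYSE30 include inflammatory and matrix genes. PTGS2, cyclooxygenase-2, was at 9.24 FPKM in the KYSE30 control and 1.55 after knockdown, and at 1.0 and 1.40 in KYSE180. TIMP2, an inhibitor of metalloproteinases, was at 33.6 and 7.34 FPKM in KYSE30, against 7.78 and 8.98 in KYSE180. SKP1, a subunit of SCF ubiquitin ligases, was at 116 and 17.1 FPKM in KYSE30, against 70.4 and 72.7 in KYSE180, with exons overlapping CTD-2410N18.5. A further 49 genes (0.411%) were 2-fold lower in KYSE30 with KYSE180 averaging under 1 FPKM. The largest of these was SPP1, osteopontin, at 26.9 and 0.988 FPKM in KYSE30, against 0.63 and 1.23 in KYSE180. IL1A and the interferons IFNL2 and IFNL1 followed. By ratio IL1A was lower alike in both lines, at 17.5% of control in KYSE30 and 17.8% in KYSE180, where it lay under 1 FPKM.

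Among genes higher in KYSE30 only, S100A2, a calcium-binding protein of basal epithelium, was at 16.1 FPKM in the control and 93.9 after knockdown, and at 549 and 561 in KYSE180. LANCL2 was at 9.55 and 63.7 FPKM in KYSE30, against 10.2 and 12.7 in KYSE180. GAL, the neuropeptide galanin, was at 20.9 and 84.5 FPKM in KYSE30, against 55.1 and 59.2 in KYSE180. The S100A2 level in KYSE30 stayed below that of both KYSE180 libraries, while that of LANCL2 passed them. A further 11 genes (0.0923%) were 2-fold higher in KYSE30 with KYSE180 averaging under 1 FPKM. Among these SLIT2, a guidance ligand, was at 7.24 and 22.6 FPKM in KYSE30 and at 0.0255 FPKM or less in KYSE180. Of the 88 higher genes, 39 (44.3%) share exons with another gene of the table, against 21.6% of the 139 lower ones and 28.7% of all tested genes; the part of shared exons in the count was not tested.

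By the same rule, 51 genes were 2-fold higher (0.428%) and 76 lower (0.638%) in KYSE180 while KYSE30 differed by less than 0.32. IFI27, the interferon gene described above, had the largest difference among the lower ones, -2.87. TSPAN1, a tetraspanin, was at 13.8 FPKM in the KYSE180 control and 1.95 after knockdown, and at 126 and 108 in KYSE30. MLEC, a lectin of the endoplasmic reticulum, was at 32.7 and 7.18 FPKM in KYSE180, against 30.4 and 24.6 in KYSE30. SEPT9, a septin, was at 102 and 36.3 FPKM in KYSE180 and at 42.0 in both KYSE30 libraries. A further 46 genes (0.386%) were 2-fold lower in KYSE180 with KYSE30 averaging under 1 FPKM. Among these LCN2, an iron-sequestering lipocalin, was at 43.3 and 2.99 FPKM in KYSE180, and TAGLN, an actin-binding protein, at 61.0 and 10.5, and both were at 0.332 FPKM or less in KYSE30.

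Among genes higher in KYSE180 only, DAG1, dystroglycan, was at 9.24 FPKM in the control and 67.1 after knockdown, and at 8.58 and 9.80 in KYSE30. COLGALT1, a collagen galactosyltransferase, was at 111 and 577 FPKM in KYSE180, against 71.4 and 69.4 in KYSE30. BTG1, an antiproliferative gene, was at 10.6 and 41.3 FPKM in KYSE180, against 29.1 and 23.8 in KYSE30. In DAG1, COLGALT1 and BTG1 the KYSE180 knockdown library stood above the other 3 libraries. A further 14 genes (0.117%) were 2-fold higher in KYSE180 with KYSE30 averaging under 1 FPKM. Among these AKR1C1, an aldo-keto reductase, was at 177 and 741 FPKM in KYSE180 and at 0.164 FPKM or less in KYSE30. Its relatives AKR1C2 and AKR1C3 share much sequence with it and were at 273 and 218 FPKM and at 248 and 154 FPKM in KYSE180, and the 3 summed to 698 and 1113, a difference of 0.67. Of the 51 higher genes, 23 (45.1%) share exons with another gene, against 26.3% of the 76 lower ones; the part of shared exons was not tested.

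**Figure D5:**
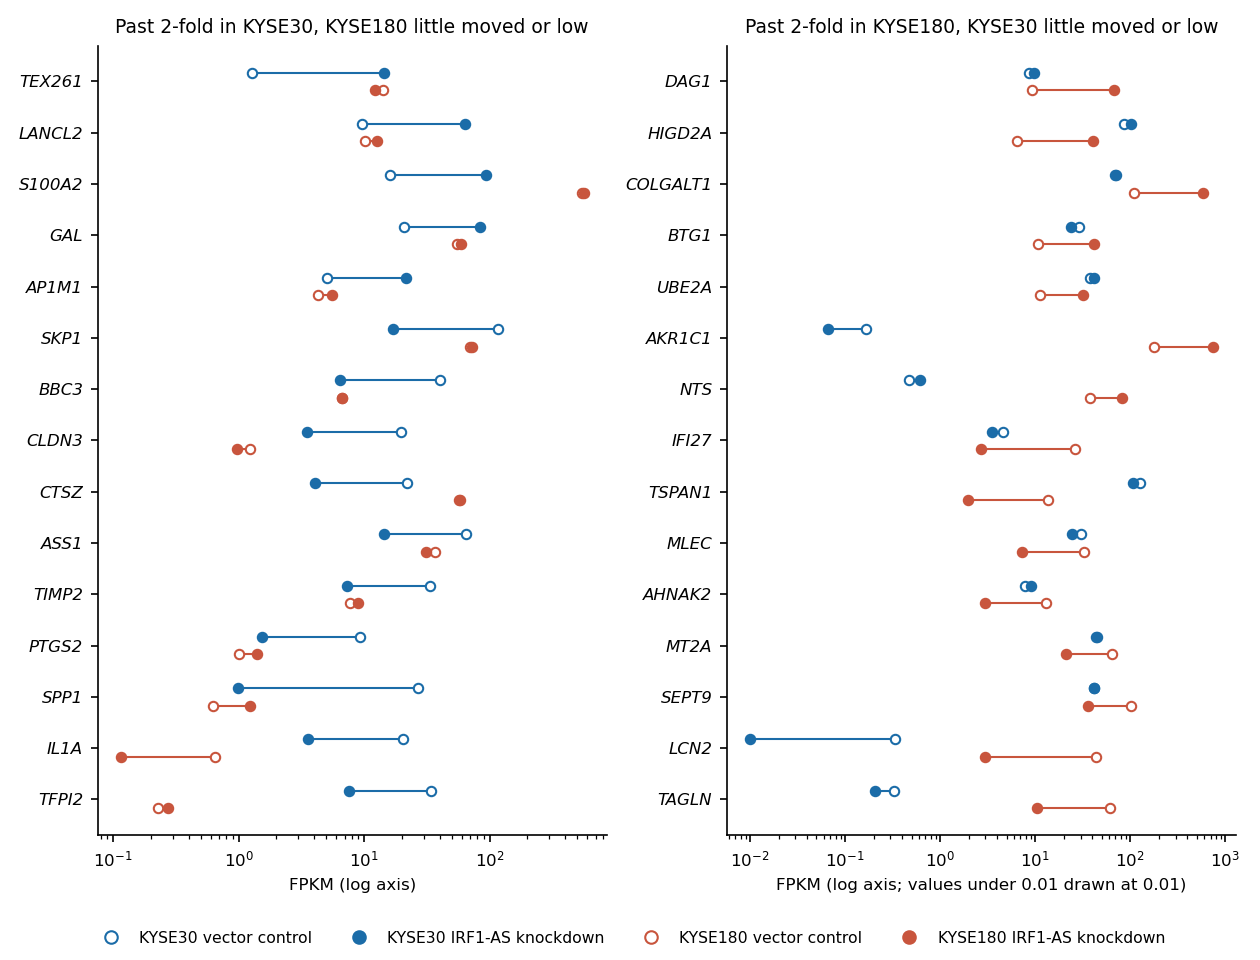
FPKM on a log axis of genes past 2-fold in KYSE30 (left) or KYSE180 (right), open circles for vector control and filled for IRF1-AS knockdown, KYSE30 in blue and KYSE180 in red. In each panel the long bars belong to the line named in its title, and the circles of the other line lie close together or at low FPKM.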

How the data were processed

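RNA sequencing of 10 libraries was available and 4 were used for the comparison. The authors deposited 1 table per library with FPKM values, per the file headers. Per the submitters' processing notes, TopHat, HTSeq and the genome build hg38 were named, and no source used here gives their versions, the annotation or the strand setting. Each table holds 23555 rows, of which 2974 are unnamed transcripts; 961 copies with the same gene name on alternate haplotypes were added to their gene, which left 19620 named genes.

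Genes at 1 FPKM or more in at least 2 of 4 libraries were tested (11921). Values were taken as log2(FPKM + 1), without rescaling, and fitted with limma 3.58.1 (R 4.3.3, statmod 1.5.0, trend and robust options), the cell line being a block, with Benjamini-Hochberg adjustment at 0.05. The numbers pair the libraries because they come from the same cell line; the deviations of same-line libraries from their group means correlated over genes at 0.838, a value that is the same in both lines by construction with 2 lines. The lines stand in for replicates. The block removes their difference in level, so p-values rest on how far the knockdown difference varied between the lines, with that spread moderated over genes by limma. FPKM give no counting interval, and the depth in reads is an estimate from the steps between low values of genes with a single transcript.

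In a line, 2-fold is a difference of 1 or more, and little moved is a difference under 0.32 (about 1.25-fold). Gene positions and exon overlaps are from GENCODE release 29 (GRCh38). Of all tested genes, 28.7% share exons with another gene, and not every such gene is marked where it is named. IFITM1, GBP2, TIMP2, BTG1 and TAGLN are among those not marked. Of the rows of the IFN-β tables, 18479 of 20501 matched a gene of the knockdown tables. Promoter windows are from RefSeq (GRCh38.p14). Of 858 entries in the gene lists, 840 were found. The genes named are the locus and its partner proteins; the 15 highest and 15 lowest with the same sign in both lines and an average of 5 FPKM, ranked by the smaller difference; the 10 largest in each direction and line with the other line little moved, and 5 with the other line under 1 FPKM; 6 of each opposite kind; list members; and the 5 smallest p-values in each direction. IFNB1, IFNL3, HSPA1B, RARRES3, IFI16, CTGF and others beside them were picked with their values in view. The comparison, the gene lists and the promoter motifs were chosen with earlier results of these data known. Some genes that the naming rules select are not reported here.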

Additional observations from a re-analysis of the deposited data

Results flagged for a closer look

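Among the genes named by rule, 12 lay past 2-fold in opposite directions in KYSE30 and KYSE180. With 1 library per arm and line, no residual spread is left to test the difference between the lines, so it was not tested.

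Higher in KYSE30 and lower in KYSE180 were DUSP3, EMP1, SMIM15, CEACAM6 and a pair of clone-named entries. DUSP3, a phosphatase of MAP kinases, was at 4.95 FPKM in the KYSE30 control and 21.1 after knockdown, and at 26.1 and 5.28 in KYSE180, differences of 1.90 and -2.11. EMP1, an epithelial membrane protein, was at 5.57 and 19.5 FPKM in KYSE30, against 13.2 and 2.61 in KYSE180, differences of 1.64 and -1.98. CEACAM6, an adhesion molecule, differed by 1.40 in KYSE30 and -1.92 in KYSE180, and SMIM15 by 1.51 and -1.58. In DUSP3 the 2 lines nearly exchanged their levels. RP11-1035H13.3, which shares exons with ARL6IP1 and RPS15A, differed by 3.14 and -4.30, and AC006486.9, which shares exons with ERF and GSK3A, by 3.50 and -1.96.

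Lower in KYSE30 and higher in KYSE180 were IGFBP5, CYP1A1, RNF208, ARFGAP1, MAPK8IP1 and TUBB. IGFBP5, which binds insulin-like growth factors, was at 37.8 FPKM in the KYSE30 control and 8.55 after knockdown, and at 18.3 and 139.7 in KYSE180, differences of -2.02 and 2.86. CYP1A1, a target of the aryl hydrocarbon receptor, was at 25.1 and 5.05 FPKM in KYSE30, against 7.77 and 31.7 in KYSE180, differences of -2.11 and 1.90. RNF208 differed by -1.89 and 2.38, ARFGAP1 by -1.69 and 1.66, and MAPK8IP1 by -1.56 and 1.56. TUBB, a beta-tubulin, differed by -4.47 and 3.87: it is listed in 8 copies of the MHC region and was at 22.5 and 0.0597 FPKM in KYSE30, against 0.0184 and 13.9 in KYSE180, and values so near 0 for a tubulin may be failed estimates.

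Outside the named genes, 892 of 2974 unnamed transcripts passed the filter. Of these, 2 (0.224%) were 2-fold higher in both lines after knockdown and 2 were 2-fold lower.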

How the results depend on the processing

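The count of 0 genes in limma over both lines was the same under 7 other settings, with a smallest adjusted p between 0.159 (median-of-ratios scaling, 801 genes at an unadjusted p under 0.05) and 1 without the block. The fit without the pairing by cell line (no replicate block) called 0 genes and left 70 at an unadjusted p under 0.05. Leaving out a line leaves 1 library per arm, no residual degrees of freedom and no test: the IRF1 difference is then -2.22 or -0.36, and that of C5orf56 -0.96 or -0.09.

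The counts by size depend on how low values are treated, the genes behind them were not compared, and the cause was not tested. With a pseudocount of 0.1, 28 genes were 2-fold higher and 114 lower in both lines, 74 were opposite, 249 were lower in KYSE30 only, and 99 were higher and 140 lower in KYSE180 only. With each library rescaled to a sum of 1000000, which makes the added 1 smaller against the values, the counts were 20 and 76 in both lines, 54 opposite, 209 lower in KYSE30 only and 85 higher in KYSE180 only. Leaving out genes averaging under 5 FPKM gave 83 genes lower in KYSE30 only. Leaving out genes that share exons, an alternative chosen after seeing the data, gave 49 genes higher in KYSE30 only, 28 higher in KYSE180 only and 18 opposite. With a limit of 0.58 (1.5-fold) for the other line, 213 genes were lower in KYSE30 only, and 87 were higher and 129 lower in KYSE180 only. The sign changed under another scaling or filter in 14 values close to 0: 7 differences of named genes (BBC3, KRT13, PSMB4, HNRNPA1 and SLX1A-SULT1A3), with a size of at most 0.025 after the change, and 7 list medians, of at most 0.133 (cell death, CDK inhibitor, squamous differentiation and mesenchymal lists).

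Of the list medians, 328 values under other settings stayed close to the main value and 2 did not: the KYSE180 median of the IRF1 and interferon-gamma targets was -0.08 with no filter on low values, and that of the metallothioneins was -1.59 with a pseudocount of 0.1.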

Other observations

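In further groups limma called no gene. Of 23 NRF2 antioxidant genes tested, 4 were higher and 6 lower in both lines, against 27.1% higher and 25.8% lower over all tested genes. The lower count lay near its share over all genes. FTH1, the ferritin heavy chain, was at 1461 FPKM in the KYSE30 control and 1018 after knockdown, and at 1528 and 1066 in KYSE180, a difference of -0.52 in both lines. PGD, an enzyme of the pentose phosphate pathway, was at 99.0 and 43.3 FPKM in KYSE30, against 161 and 164 in KYSE180. The EGF receptor ligand AREG, amphiregulin, was at 581 and 339.5 FPKM in KYSE30, against 27.4 and 11.3 in KYSE180, while EGFR was at 225 and 238 in KYSE30, against 80.2 and 66.8 in KYSE180.

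Of 13 matrix metalloproteinase and inhibitor genes tested, 6 were lower in both lines and 0 higher in both. The shares over all tested genes were 25.8% lower in both lines and 27.1% higher in both, and 5514 of 11921 had opposite signs. MMP10, a stromelysin, was at 64.6 FPKM in the KYSE180 control and 19.3 after knockdown, and at 3.14 and 1.98 in KYSE30. MMP1, a collagenase, was at 39.3 and 18.2 FPKM in KYSE180, against 0.401 and 2.66 in KYSE30, opposite in sign. Of 21 p53 targets tested, 7 were lower in both lines and 1 higher in both. CDKN1A, the p21 cell cycle inhibitor, was at 47.4 and 67.2 FPKM in KYSE30, against 46.1 and 17.1 in KYSE180, opposite in sign. Of 74 cytosolic ribosomal protein genes tested, 34 were lower in both lines and 6 higher in both, with medians of -0.13 in KYSE30 and -0.07 in KYSE180. Of 8 mitochondrially encoded genes tested, 7 had opposite signs in the lines, with medians of -0.19 in KYSE30 and 0.42 in KYSE180.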
